A study of Mus musculus with 10 samples.

Results

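Ribosomal proteins of the cytosol were followed in male C57Bl/6 mice, in optic nerve heads taken 3 days after 1 eye had been held under raised pressure for 1 h. Members of the set were all genes with a probe set annotated to 1 gene only and a symbol made of Rpl or Rps and a number, leaving out the S6 kinases and pseudogene symbols. The rule found 45 genes among the 12393 genes measured, 24 of the large and 21 of the small subunit, read by 96 probe sets. Where a gene had several probe sets, the brightest one was used, by its mean over the 10 arrays. A further 29 genes of the family, among them Rpl3, Rpl5, Rpl10, Rpl13, Rpl26, Rps13 and Rps16, were read only by probe sets annotated to several genes and are not members.

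The mice were 6 to 8 weeks old. The right eye was held at 30 mmHg through a saline-filled glass cannula in the anterior chamber, and the left eye was left unoperated as the control. The RNA of 2 nerve heads was pooled and amplified for each array, so the 10 mice gave 5 control and 5 elevated pressure arrays. Both groups had the same strain, sex, age range and day of collection. The side of the head and the cannulation went with the pressure, so their contributions cannot be told apart from it, and a difference that only some mice showed is averaged within a pool. Per the labels, these were biological replicates.

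Ribosomal proteins and ribosomal RNA form the small subunit, which decodes the mRNA, and the large subunit, which joins the amino acids. The proteins are made in matched amounts, and many of their mRNAs begin with a cytosine followed by pyrimidines, the terminal oligopyrimidine (TOP) tract, through which mTOR complex 1 controls their translation. When ribosome assembly fails, free Rpl5 and Rpl11 bind Mdm2 and stabilise p53, and mutations in several members cause Diamond-Blackfan anaemia.

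Values are deposited probe set intensities on a linear scale, called signal here, and their brightness differs between probe sets for reasons other than mRNA abundance. Groups were compared on the scale log2(signal + 16) with limma over all genes, as elevated pressure minus control, and a gene was called at a Benjamini-Hochberg adjusted p under 0.05. The tissue held the astrocyte markers, with 0 of 9 under a mean signal of 100, and the oligodendrocyte markers, with 0 of 6. Of the striated muscle markers 7 of 8 lay under 100. In bulk tissue, fewer cells of a type and less RNA per cell cannot be told apart.

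Promoter windows from RefSeq on the mouse build GRCm38.p6 were found for 39 of the 45 members. They are shown for the 2 members whose groups did not overlap (Rpl7a and Rpl6), for Rpl22l1, which had the highest fold change, and for Rps6 and Rps3a1, which were among the lowest. Rpl27a, Rpl35 and Rps18 stand for members with a long pyrimidine tract at the annotated start. Each runs from 60 bases before to 20 bases after the annotated start, 5′ to 3′ in the sense of the gene. Capitals mark a TOP start (a C and at least 4 further pyrimidines, beginning within 5 bases of the start), the letters CCGGAAG on either strand, or TATAAA on either strand.
Rpl7a: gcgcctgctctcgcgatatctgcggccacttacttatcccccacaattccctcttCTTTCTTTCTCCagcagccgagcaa
Rpl27a: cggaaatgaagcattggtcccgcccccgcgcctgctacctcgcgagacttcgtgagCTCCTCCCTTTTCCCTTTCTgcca
Rpl35: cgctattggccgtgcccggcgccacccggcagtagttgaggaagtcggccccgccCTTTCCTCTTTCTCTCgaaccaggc
Rps6: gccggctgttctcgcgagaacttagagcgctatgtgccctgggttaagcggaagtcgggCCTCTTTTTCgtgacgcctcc
Rps18: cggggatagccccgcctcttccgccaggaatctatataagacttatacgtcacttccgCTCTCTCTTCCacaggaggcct
Rpl6: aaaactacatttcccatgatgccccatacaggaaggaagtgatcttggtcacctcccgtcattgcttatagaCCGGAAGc
Rps3a1: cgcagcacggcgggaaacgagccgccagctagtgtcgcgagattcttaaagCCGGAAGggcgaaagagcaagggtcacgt
Rpl22l1: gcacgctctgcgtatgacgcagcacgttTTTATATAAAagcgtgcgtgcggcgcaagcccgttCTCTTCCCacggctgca

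On the plus strand lie the windows of Rpl7a at chr2:26910747-26910826, Rpl27a at chr7:109519135-109519214, Rpl6 at chr5:121204441-121204520 and Rpl22l1 at chr3:28805448-28805527. On the minus strand lie those of Rpl35 at chr2:39005112-39005191, Rps6 at chr4:86857348-86857427, Rps18 at chr17:33955646-33955725 and Rps3a1 at chr3:86142649-86142728. In the printed windows Rpl6 and Rps3a1 show no TOP start but hold CCGGAAG, the core of an ETS factor motif. In the longer windows of 300 bases described next, Rpl27a, Rpl35, Rps6 and Rps18 held CCGGAAG as well as a TOP start. In Rpl22l1 the run of capitals before the start holds TATAAA on both strands, overlapping.

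Over the full windows of 300 bases, from 250 before to 50 after the start, the 39 members had 47 annotated promoters. A TOP start was present in 20 of them (42.6%), against 18.3% of all 32851 promoters in the table. CCGGAAG was found on either strand in 19 (40.4%, against 8.86%), GGCGG in 36 (76.6%, against 48.8%) and ATGGCGG, which overlaps it, in 7 (14.9%, against 4.05%). TATAAA was found in 5 (10.6%, against 13.6%). These are matches of letters, and windows of 1 gene can overlap.

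No ribosomal protein gene was called. At the adjusted threshold 0 of 45 members and 0.0% of all genes passed, and the lowest limma adjusted p of a member was 0.849. At an unadjusted limma p under 0.05 there were 0 members in either direction, against 3.97% of all genes, 2.65% on the higher and 1.32% on the lower side. With a trended robust variance Rpl6 and Rpl7a passed that unadjusted limit, and without control array 4 Rpl39l did. Of the members 19 had a log2 fold change above 0 and 26 one below 0, where 52.7% of all genes lay below 0. Their median log2 fold change was -0.019, against -0.0094 over all genes. The split changed with the scaling of the arrays. With array medians made equal 24 members lay above 0 and 21 below, and with quantile normalization 33 and 12.

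The differences were small in size. The median absolute log2 fold change of the members was 0.028, and that of all genes was 0.10. The 95% confidence interval of the fold change lay within 1.2-fold in either direction for 36 of 45 members, against 18.1% of all genes. It lay within 1.1-fold for 2, Rps18 and Rps28, against 0.0403%, and within 1.5-fold for 43, against 76.8%. Only Rps25 and Rpl39l reached past 1.5-fold. The contrast was smaller among bright genes. At a mean signal of at least 5000, 33 of 34 members and 607 of 936 other genes had an interval within 1.2-fold. The median absolute log2 fold changes were 0.024 and 0.053. At a signal of at least 10000, 26 of 26 members and 70 of 88 other genes did, with medians of 0.025 and 0.047. The plot of fold changes shows every member with its interval.

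**Figure D1:**
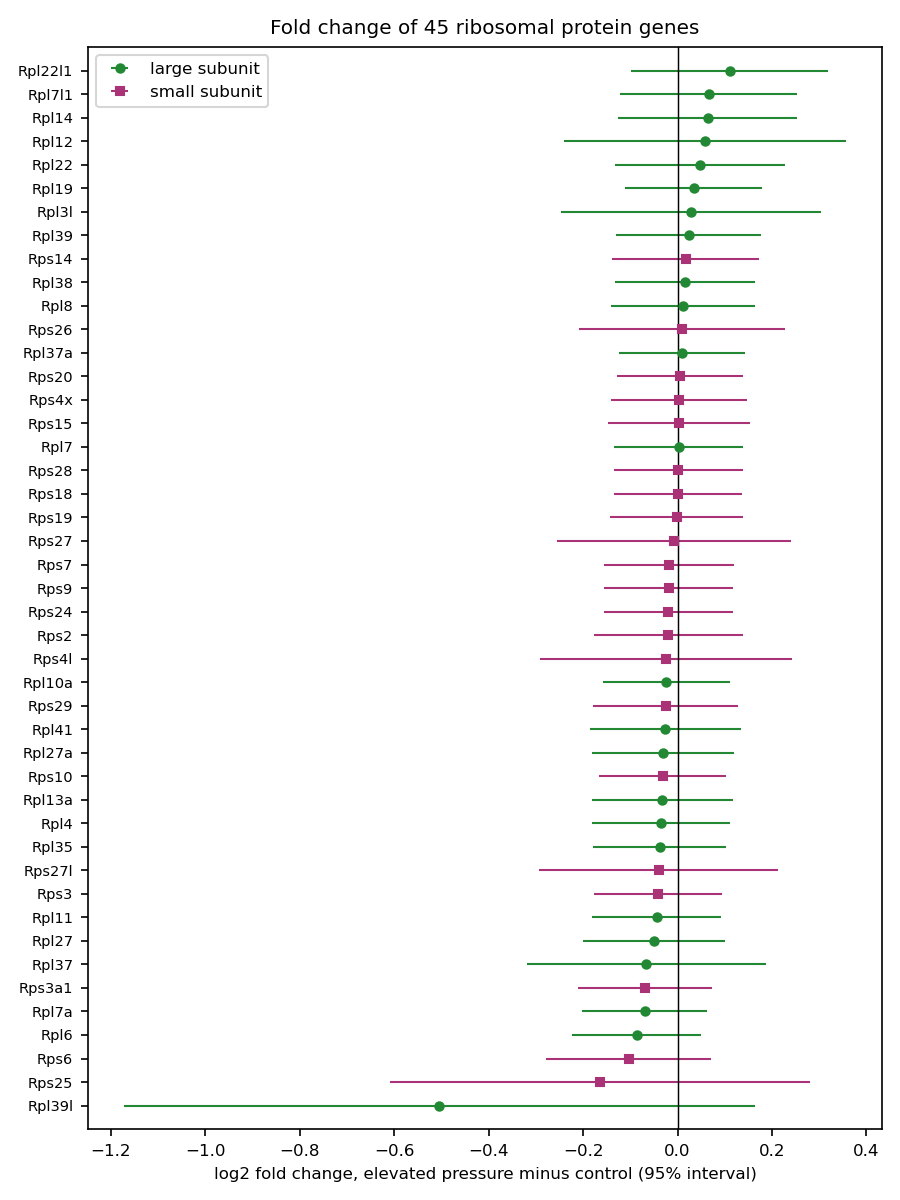
Log2 fold change of each of the 45 ribosomal protein genes, elevated pressure minus control (points), with the 95% confidence interval from limma (lines), for 5 arrays against 5; green circles are the large subunit and purple squares the small subunit. All 45 intervals cross 0, and the widest is that of Rpl39l, from -1.17 to 0.16.

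Among the 24 large subunit genes, 12 lay above and 12 below 0, with a median of -0.011. Rpl6 (probe set 1416546_a_at), a eukaryote-specific large subunit protein, gave signals of 11899, 11570.1, 11505, 11316 and 11373.5 on control arrays 1 to 5. On elevated pressure arrays 1 to 5 it gave 10546, 11008, 10546, 11113 and 11101. Every elevated pressure array lay below every control array. The means were 11533 ± 228 and 10863 ± 292 (SD, n = 5). The log2 fold change was -0.086 (standard error 0.062), and the limma adjusted p was 0.849.

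Rpl7a (1422613_a_at), a relative of the archaeal RNA-binding protein L7Ae, read 11106, 10729, 10885, 10702 and 10844 on the control arrays. It read 10319, 10403, 10241, 10389 and 10347 on the elevated pressure arrays, again with no overlap. The log2 fold change was -0.070, with an interval from -0.20 to 0.062 and a limma adjusted p of 0.849. These were the only 2 members whose groups did not overlap, both lower, against 0.226% of all genes in this direction. In the other direction there were 0 members, against 0.403% of all genes. At a signal of at least 10000, groups lay apart on the lower side for 2 of 26 members and 2 of 88 other genes. At 5000 or more they did for 2 of 34 members and 2 of 936 other genes. With array medians made equal, or with quantile normalization, 0 members kept groups apart.

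The standard error in this fit borrows the spread of all genes, which is wider than that of these bright probe sets. Rpl7a had a pooled SD within groups of 0.016 on the log2 scale, and the median over all genes was 0.21. With a variance that follows the signal and a robust estimate of it, changed together, the standard error of Rpl6 went from 0.062 to 0.033 and that of Rpl7a from 0.060 to 0.030. Their unadjusted limma p-values were then 0.0222 and 0.0387, the adjusted p was 0.835 for both, and 28 of 45 members had an interval within 1.1-fold.

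**Figure D2:**
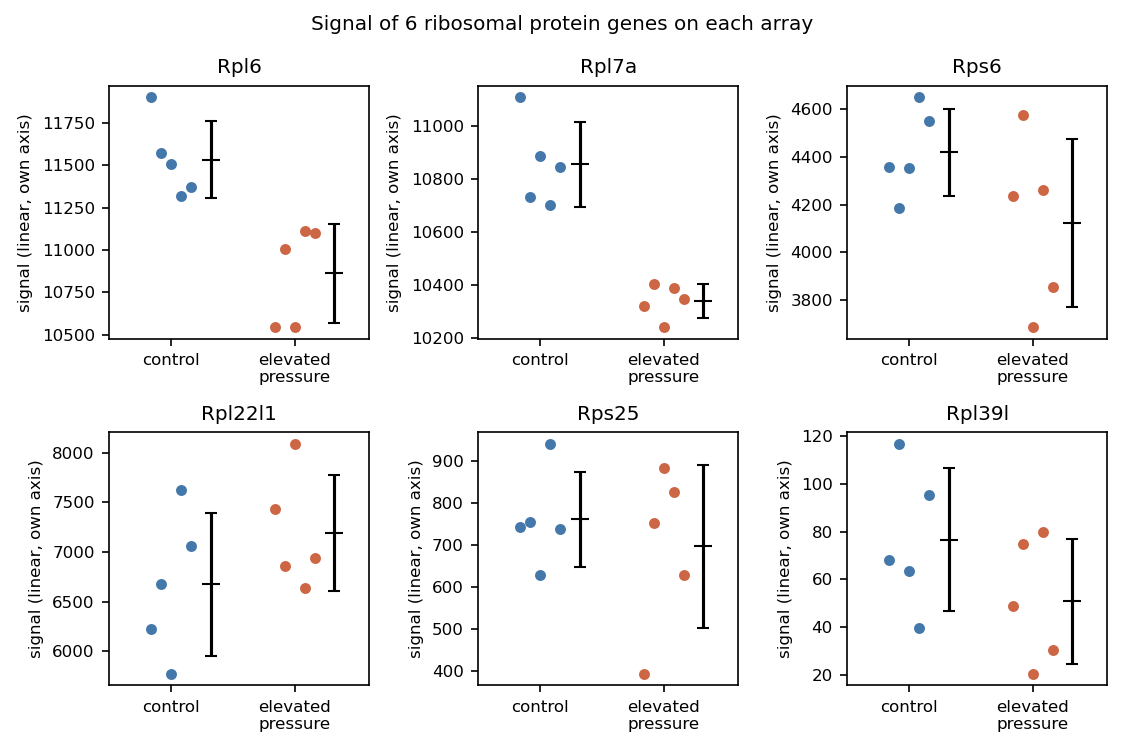
Signal of 6 ribosomal protein genes on each of the 10 arrays, with points in replicate order and the group mean and SD (n = 5) beside them; each panel has its own linear axis that does not start at 0. Rpl6 and Rpl7a separate the groups, Rps6, Rpl22l1 and Rpl39l overlap, and elevated pressure array 1 stands at 393 for Rps25.

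Other large subunit genes had groups that overlapped. Rpl11, one of the Mdm2-binding proteins, stood at 11307 ± 211 (SD, n = 5) in control and 10964 ± 318 under elevated pressure, which is -0.045 on the log2 scale. Rpl13a, which also leaves the ribosome to silence inflammatory mRNAs, had a log2 fold change of -0.033, and Rpl38, needed for translation of Hox mRNAs in the embryo, one of 0.015. The highest signal of Rpl38, 14847, was on elevated pressure array 1 and the lowest, 13055, on elevated pressure array 2, so 1 group held both ends of its range.

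The large subunit genes with the smallest p among those above 0 were Rpl22l1, Rpl7l1, Rpl14, Rpl22 and Rpl19. Rpl14 read 641, 499, 583, 563 and 637 on the control arrays and 601, 662, 592, 617 and 577 on the elevated pressure arrays. Its log2 fold change was 0.064, or 0.0092 without control array 2, and the groups overlapped. Rpl22, an RNA-binding protein that cells can lack, had a log2 fold change of 0.048 with an interval from -0.13 to 0.23. Rpl19, which forms a bridge between the subunits, had one of 0.034 with an interval from -0.11 to 0.18.

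Among the 21 small subunit genes, 7 lay above and 14 below 0, with a median of -0.019. Rps6 (1416142_at) encodes the substrate of the S6 kinases downstream of mTOR. It read 4358, 4188, 4355, 4649.6 and 4553 on the control arrays and 4237, 4574, 3688, 4259.9 and 3857 on the elevated pressure arrays. Elevated pressure arrays 3 and 5 lay below all controls, and the other 3 lay among them. The log2 fold change was -0.10 (standard error 0.079), or -0.064 without elevated pressure array 3, and the limma adjusted p was 0.849.

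Rps3a1, at the platform of the small subunit, read 12193, 11580.2, 11620.0, 11499.6 and 10935 on the control arrays. On the elevated pressure arrays it read 10587, 11019, 11080.1, 11239.8 and 11202. Control array 5 lay within the elevated pressure group, and without it Rps3a1 and Rps3 joined the members with groups apart, which made 4. The log2 fold change of Rps3a1 was -0.068 with an interval from -0.21 to 0.073. Rps3, which lines the entry of the mRNA channel, had a log2 fold change of -0.042.

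A list of 12 genes mutated in Diamond-Blackfan anaemia or related ribosome disorders, which is not complete, held 8 members of the set. Of these 2 lay above and 6 below 0, with a median of -0.019, and all 8 had an interval within 1.2-fold. Rps19, the gene most often mutated in the anaemia, stood at 10628 ± 255 in control and 10617 ± 379 under elevated pressure (SD, n = 5), a log2 difference of -0.0019. Rps14, whose loss marks the 5q- syndrome, had a log2 fold change of 0.017, with elevated pressure array 3 highest of all 10 at 11628. Rps26, which contacts the mRNA just before the start codon, had the widest range of the 8, from 6091 on elevated pressure array 1 to 8442 on elevated pressure array 4. Its log2 fold change was 0.0093, and both ends of its range again lay in 1 group. The log2 fold changes of Rps7, Rps10, Rps24 and Rps29 lay between -0.032 and -0.019.

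The narrowest ranges over the 10 arrays were those of Rpl37a, Rps20 and Rps28. Rpl37a, a zinc-binding protein of the large subunit, ran from 11325 to 11958, a span of 1.06-fold. Rps28, a small protein near the mRNA exit, read 14680.4, 14170.5, 14263, 13943 and 14819 in control and 14745, 14418, 14006, 14571 and 14188 in elevated pressure tissue, with a log2 fold change of 0.0012. The groups of all 3 overlapped.

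Rps25 (1430978_at), which some viral and cellular internal ribosome entry sites need, had 1 of the widest. It read 741, 753, 629, 940.0 and 738 on the control arrays and 393, 753, 882, 826 and 628 on the elevated pressure arrays. Elevated pressure array 1 stood apart from the other 9 arrays. The log2 fold change was -0.16 with all arrays and 0.023 without that array. On the same array the signal of the 3′ control set for Gapdh over that of the 5′ set, a measure of how far cDNA reached along the mRNA, was 2.07, against 1.53 to 1.73 on the others. The same ratio for actin did not single out this array, with 2.10 here, 2.13 on elevated pressure array 4 and 1.94 on control array 3. With the Gapdh ratio as a covariate the log2 fold change of Rps25 was 0.15. The part of either ratio in the result was not tested beyond this.

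Paralogs, second copies of a ribosomal protein that carry an L after the number, numbered 6, and 3 lay above and 3 below 0. Their ranges were wider, with a median span of 1.51-fold over the 10 arrays, against 1.12-fold for the 39 other members. Only 1 of the 6 had a mean signal of at least 5000. Rpl22l1 (1417126_a_at), the partner copy of Rpl22, read 6224, 6683, 5778, 7622 and 7065 on the control arrays. On the elevated pressure arrays it read 7434, 6861, 8087, 6638 and 6938. The groups overlapped from 6638 to 7622, and the log2 fold change of 0.11 was the highest of the family, with an interval from -0.099 to 0.32 and a limma adjusted p of 0.849. It was 0.060 without control array 3 and 0.067 without elevated pressure array 3.

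Rpl39l (1423327_at), best known from the testis, had the lowest log2 fold change. It read 68.1, 117, 63.7, 39.7 and 95.3 in control and 48.9, 74.7, 20.6, 79.8 and 30.6 in elevated pressure tissue. The means were 76.7 ± 29.8 and 50.9 ± 26.2 (SD, n = 5), and the values spanned 3.63-fold over the arrays. The log2 fold change was -0.50 (standard error 0.30), and leaving out 1 array at a time moved it between -0.67, without control array 4, and -0.31, without elevated pressure array 3. The groups overlapped from 39.7 to 79.8, and the limma adjusted p was 0.849.

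Rpl3l, known from heart and skeletal muscle, gave between 11.7 and 29.0 on every array, near the bottom of the signal range. Rpl7l1, which takes part in the assembly of the large subunit, had a log2 fold change of 0.066, and Rps4l, a copy of Rps4x, one of -0.024. The probe set used for Rpl7l1 had a mean signal of 2010. Another set of this gene, at 2005, had a log2 fold change of -0.005, so its direction depended on the set. Rps27l, a copy of Rps27 that p53 induces, read 4762, 4658, 4726, 5603 and 5020.1 on the control arrays and 3714, 4551, 5513, 5243 and 5245 on the elevated pressure arrays. Its log2 fold change was -0.040 with all arrays, 0.052 without elevated pressure array 1 and 0.0047 without control array 4.

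The spread between arrays was lower for the members than for most genes. The median SD within groups was 0.063 on the log2 scale, against 0.21 over all genes, and the median span over the 10 arrays was 1.14-fold, against 1.62-fold. Spread went with signal. Of the members 34 had a mean signal of at least 5000, and their median SD was 0.048, where 936 other genes in that range had 0.10. At a signal of at least 10000 the 26 members had a median SD of 0.040 and the 88 other genes 0.071. The 11 members under 5000 had 0.18, and other genes under 5000 had 0.22. The highest signal on any array was 20168, and whether differences are compressed near the top of the scale was not tested.

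**Figure D3:**
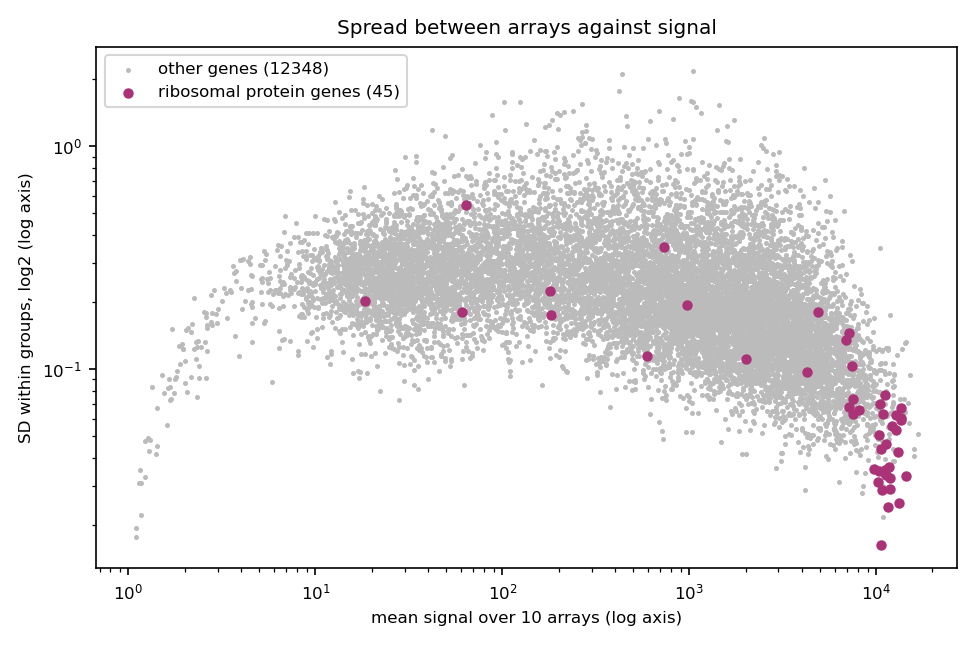
SD within groups on the log2 scale against the mean signal over 10 arrays, both on log axes, for the 45 ribosomal protein genes (purple) and the 12348 other genes (grey). The 34 members with a signal of at least 5000 lie at the lower right with a median SD of 0.048, and the dimmer members lie among the other genes.

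Bright genes lay on the lower side in the comparison as a whole. Among the 936 other genes with a signal of at least 5000, 239 lay above and 697 below 0, with a median log2 fold change of -0.039. The 34 bright members were split 15 and 19, with a median of -0.019. Without elevated pressure array 1 they were split 9 and 25, and the other bright genes 266 and 670. With quantile normalization the other bright genes were split 453 and 483, and the bright members 26 and 8. The 18S rRNA control probe set for the middle of the molecule read 6822 ± 510 in control and 6313 ± 961 in elevated pressure tissue (SD, n = 5), so its groups differed by less than the spread between arrays.

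The arrays were also compared by the mean over the 45 members of each gene's log2 deviation from its own mean. This mean was 0.028, 0.028, 0.014, -0.0054 and -0.0044 on control arrays 1 to 5. On elevated pressure arrays 1 to 5 it was -0.042, -0.040, 0.0044, 0.043 and -0.025. The highest and the lowest array both belonged to the elevated pressure group, and the whole span was 1.06-fold. For the small subunit alone, elevated pressure array 1 was lowest at -0.095, while for the large subunit it stood at 0.0040. That array was the lowest of the 10 for 10 of 45 members, and for 28.5% of all genes.

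**Figure D4:**
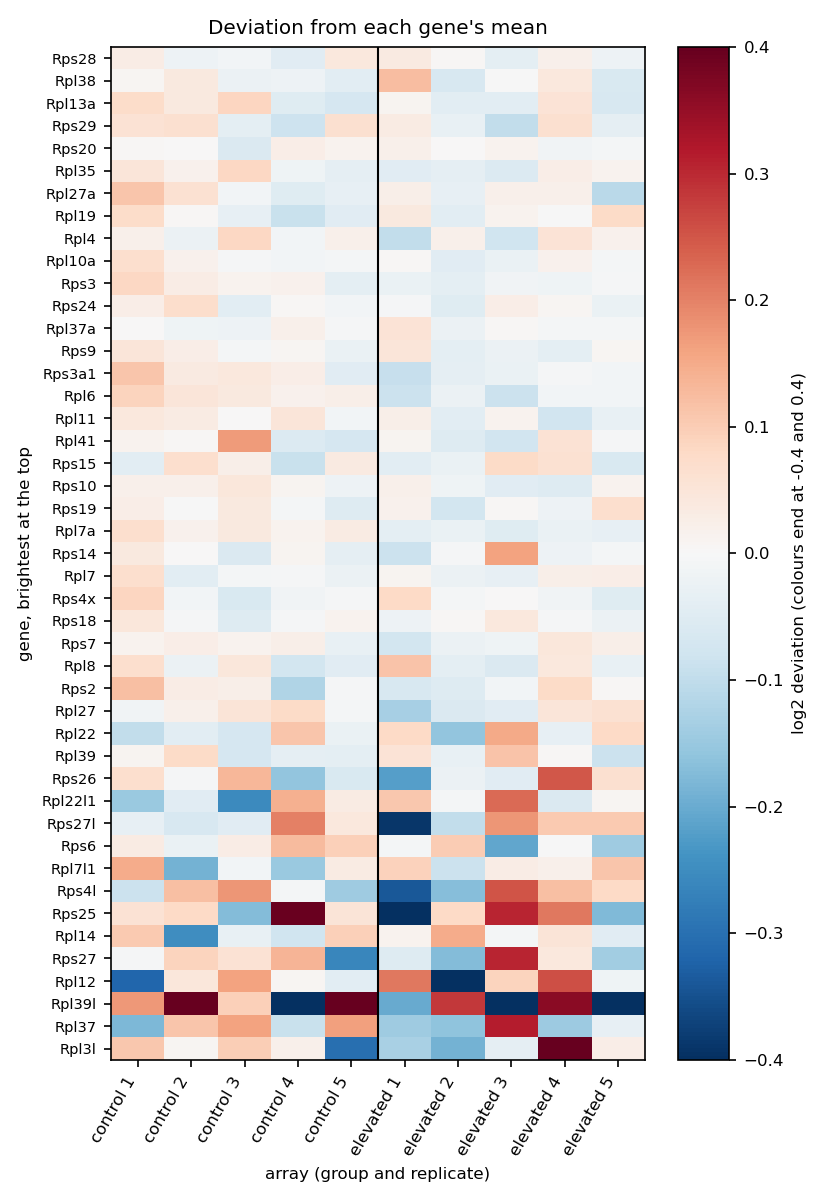
Log2 deviation of each ribosomal protein gene (rows, brightest at the top) from its mean over 10 arrays, by array (columns, 5 control then 5 elevated pressure); red is above and blue below the mean, and colours end at 0.4 in either direction. The upper rows are pale on every array, and the strong colours lie in dim rows such as Rpl39l and Rps25.

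Members did not share much of their variation. With group means removed, the mean correlation between pairs of members over the 10 arrays was 0.085, against 0.020 over all genes. Both bright sets share the arrays and amplification, but 26 of the 34 members and 88 of the 936 other genes had a signal of at least 10000. The mean correlation was 0.13 among the bright members and 0.13 among the other bright genes. In contrast, 6 oligodendrocyte markers had a mean correlation of 0.66 and 9 photoreceptor markers one of 0.88. Markers of other eye tissue varied over a wider range than the members. The mean over photoreceptor markers ran from -1.58 to 1.68 in control and from -0.98 to 1.66 in elevated pressure tissue, a span of 9.59-fold, and 2 of the 9 lay under a signal of 100. Oligodendrocyte markers spanned 2.06-fold. Their part in the values of the ribosomal protein genes was not tested.

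Probe sets of 1 gene were compared for the 22 members with more than 1. For 15 of them the log2 fold changes had opposite signs, although the median distance between highest and lowest was 0.047. Most of the large distances came with dim probe sets, but Rpl22 stood at 0.048 and -0.13 in sets with mean signals of 7454 and 3923. Rps18, a protein of the head of the small subunit, had 6 probe sets with mean signals from 23.6 to 10276, and their log2 fold changes ran from -0.096 to 0.26, with 0.0004 for the brightest. Rps20 stood at 0.0057 and 0.0064 in 2 bright probe sets and at -0.27 and -0.28 in 2 dimmer ones. One of those dimmer sets read 195 on elevated pressure array 1 and 371 to 616 on the other 9. Rpl27a stood at -0.031 in the brighter and 0.17 in the dimmer set.

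Over all 96 probe sets, the 64 with a mean signal of at least 5000 had log2 fold changes from -0.086 to 0.11, and 47 lay below 0. Several of these sets can belong to 1 gene. Counted by gene, 19 of the 34 bright members lay below 0, 25 without elevated pressure array 1 and 8 with quantile normalization. Of the 936 other bright genes 697 lay below 0, 670 without that array and 483 with quantile normalization. The 19 with a signal under 500 ran from -0.50 to 0.26. Many of the sets carry the suffix x_at (40) or s_at (2), which the array maker gives to sets that can read other transcripts. Processed pseudogenes and near-identical copies are common in this family, so the values of single members are uncertain to that extent. A further 101 probe sets annotated to several genes, including a gene of the family, stand outside the counts. Their median log2 fold change was -0.016, with 33 above and 68 below 0, read with the deposited scaling only.

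**Figure D5:**
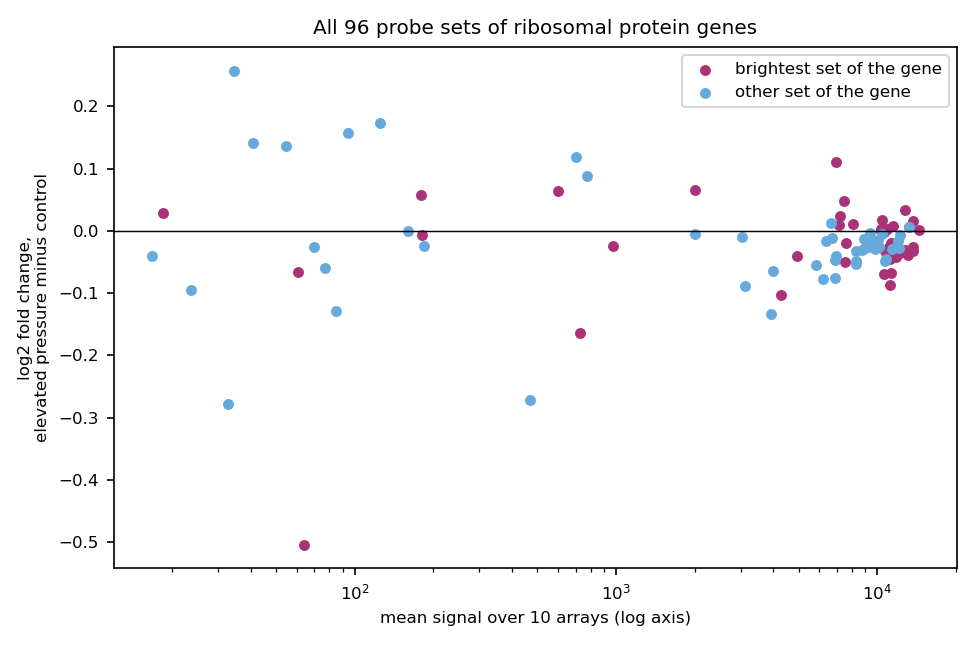
Log2 fold change, elevated pressure minus control, of all 96 probe sets of the 45 ribosomal protein genes against their mean signal on a log axis; purple is the brightest set of a gene and blue any other. The 64 sets with a signal of at least 5000 stay between -0.086 and 0.11, and the 19 under 500 reach from -0.50 to 0.26.

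Genes that make, use or regulate ribosomes were read from the same fit, and 0 of them were called in any list. The ribosomal proteins with other names gave log2 fold changes of -0.023 for Rplp0 and -0.0022 for Rplp2, proteins of the stalk, 0.0046 for Rpsa and -0.018 for Fau. With quantile normalization all 4 lay above 0. Of 43 measured ribosome biogenesis genes, 21 lay above and 22 below 0, with a median of -0.017, which was 0.018 with quantile normalization. Nhp2, a protein of the box H/ACA particles that modify rRNA, stood at 1317 ± 120 in control and 1525 ± 126 under elevated pressure (SD, n = 5). Its log2 fold change was 0.21, and its limma adjusted p was 0.849. Nolc1, a nucleolar chaperone, had a log2 fold change of -0.22.

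Translation factors lay more often below 0 than above it. Of 31 initiation genes 12 were above and 19 below, with a median of -0.044. Without elevated pressure array 1 the split was 9 and 22, with a median of -0.025. With quantile normalization it was 14 and 17, with a median of -0.014. Eif2b4, a subunit of the exchange factor for eIF2, had a log2 fold change of 0.19. Of 10 elongation and release genes 3 were above and 7 below, with a median of -0.060, which was -0.022 with quantile normalization. Of 16 mRNAs outside the ribosome that carry a TOP tract, 3 were above and 13 below, with a median of -0.068. Their mean signals ran from 2722 to 15999.7. Among genes that are not members, 697 of the 936 at a signal of at least 5000 lay below 0. Of those under 5000, 5813 of 11412 did. Naca, a chaperone of nascent chains, stood at 12774 ± 358 in control and 11588 ± 903 in elevated pressure tissue (SD, n = 5), and its groups did not overlap. Its log2 fold change was -0.14, and its limma adjusted p was 0.849. Elevated pressure array 1 was lowest in the means of the initiation, TOP and elongation lists, at -0.14, -0.18 and -0.36. Without it 13 of the 16 TOP mRNAs still lay below 0, with a median of -0.048, and with quantile normalization or equal array medians 12 did.

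In the mTOR and S6 kinase list, 6 of 16 genes lay above and 10 below 0, with a median of -0.023. Without elevated pressure array 1 the counts were 9 and 7, and so they were with quantile normalization. Deptor, an inhibitor of mTOR, stood at 957 ± 221 in control and 555 ± 356 in elevated pressure tissue (SD, n = 5), with a log2 fold change of -0.90. The interval for this gene alone ran from -1.60 to -0.19, and the limma adjusted p over all genes was 0.849. Tsc1, a brake on mTOR complex 1, had a log2 fold change of 0.22. Of 8 p53 targets 2 were above and 6 below, with a median of -0.12. That median was -0.053 without elevated pressure array 1, the lowest array for this list, and -0.074 with quantile normalization. Mdm2 had a log2 fold change of -0.34. The 74 mitochondrial ribosomal proteins, which serve the separate ribosome of that organelle, were split 41 and 33 with a median of 0.0072, and 54 and 20 with quantile normalization.

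The promoter letters were set beside the fold changes as a description. The 19 members with a TOP start had a median log2 fold change of -0.019, and the 20 without one by this rule -0.025. The rule rests on the annotated start, and a pyrimidine run lying wholly further than 5 bases from it did not count. A gene without a match may therefore still have a TOP mRNA. The 19 members with CCGGAAG, Rpl6 and Rps3a1 among them, had a median of -0.032 with 14 below 0, and the 20 without it one of -0.0004 with 10 below 0. The 5 members with TATAAA, Rpl22l1 among them, had a median of 0.024 with 1 below 0. The 34 without it had one of -0.025 with 23 below 0. These splits were read with the deposited scaling only. With quantile normalization the median of all 45 members was 0.0203, with 12 below 0.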

How the data were processed

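RNA of pooled optic nerve heads was amplified with the Ovation RNA Amplification System V2, biotin-labelled and hybridised to 1 array per pool, per the labels' protocols. The authors deposited probe set intensities on a linear scale for 22690 probe sets on 10 arrays. How these deposited intensities were summarised and normalized is not given in the sources used here. No scanner files were used. The array medians ran from 414 to 475.

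The array annotation gave 1 symbol for 20380 probe sets and several for 691. It did not list 1555, and 64 were controls. Values were transformed to log2(signal + 16), which understates changes of dim genes. The brightest probe set of each gene was kept, and no filter was applied. A linear model (lmFit, then eBayes, in limma 3.58.1 under R 4.3.3) contrasted 5 arrays with 5, without covariate or block, and p-values were adjusted over 12393 genes by Benjamini-Hochberg. A range over arrays is given as a fold on the log2(signal + 16) scale. The number of arrays limits the precision. The limma step was tested on simulated data in which genes varied independently, so differences shared by many genes of an array were not covered.

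The members and gene lists were chosen with earlier results of these data known. Named members were the 5 with the smallest p in each direction, the 3 widest and 3 narrowest in range, the paralogs, the disease and regulatory lists, and the 3 whose probe sets differ most, with the 2 smallest p of each related list. Other genes appear where a count is small or a window is shown, chosen after their values were seen. Alternatives covered scaling, pseudocount, probe set choice, dim genes, variance, array weights, a block, a covariate and each array left out. Python 3.11.15, NumPy 2.4.6, pandas 2.3.3 and Matplotlib 3.10.9 were used.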

Additional observations from a re-analysis of the deposited data

Results flagged for a closer look

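In 3 of 66 checks of a group of 5 arrays, 1 array stood far from the other 4 by Dixon's criterion, where chance gives about 1 in 20, or 3.3 here. Rpl3l read 11.68 on control array 5 and 18.33 to 20.74 on the other control arrays, at the dim end of the scale. Rps20 read 12658.15 on control array 3 and 13208.76 to 13428.82 on the others, and Rps7 read 9568.89 on control array 5 and 9861.23 to 9943.38 on the others. The groups of all 3 genes overlapped with and without these arrays.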

How the results depend on the processing

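Under each of the 20 alternatives 0 of the 45 members and 0 genes in all were called, and the lowest adjusted p of a member was 0.574, without elevated pressure array 3. Quantile normalization moved the median log2 fold change of the members to 0.0203 (all genes 0.017), with 33 members above 0 and 55.0% of all genes, and left 0 members with groups apart. Equal array medians also left 0 members with groups apart, with 24 members and 52.3% of all genes above 0. With array weights 13 were above and 32 below 0. Leaving out 1 array at a time gave 0 to 0 called, a median from -0.031 to -0.0077, 15 to 21 members above 0, and 2 to 4 with groups apart, the 4 being without control array 5. A trended and robust variance, changed together, gave an adjusted p of 0.835 for Rpl6 and Rpl7a. The replicate block, tried because both groups carry the numbers 1 to 5, called 0 members, with a lowest adjusted p of 0.888 and 29 intervals within 1.2-fold. Arrays with equal numbers correlated between -0.080 and 0.21. The 2 arrays numbered 2 were each other's closest match, as were those numbered 4, while numbers 1, 3 and 5 were not. The labels do not say whether equal numbers share mice, so the numbers were not taken as pairs. The p-values and intervals of the main fit thus ignore that both groups came from the same mice.

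Of the 30 named members 10 kept their sign under every alternative run, among them Rpl6, Rpl7a, Rps6 and Rpl22l1, and 20 changed it at least once. Without x_at and s_at sets, Rps20 stood at -0.27. Rpl39l and Rpl3l had no value without the dimmest 25% of genes. The number of arrays limits the precision. Compression near the top of the scale and reading of pseudogenes were not tested.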
